A study of Mus musculus with 14 samples.

Results

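The miR-34 family and the miR-192, miR-194 and miR-215 group of p53-linked miRNAs were followed in mouse peritoneal macrophages. Members were all probes named for mouse miR-34a, miR-34b, miR-34c, miR-192, miR-194 or miR-215. There were 6 such probes among 343 probes for mouse miRNAs, each printed in 3 spots on an array. Of the 6, 3 (miR-34a, miR-192 and miR-194) stood above the blank spots on at least 3 of the 14 arrays.

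RNA came from adherent peritoneal cells of BALB/c mice and was hybridised, 1 sample to an array, to one-colour arrays of locked nucleic acid capture probes. The groups were nematode-elicited IL-4R KO cells (4 arrays), nematode-elicited wild-type cells (4 arrays), thioglycollate-elicited IL-4R KO cells (3 arrays) and thioglycollate-elicited wild-type cells (3 arrays). IL-4R KO stands for a knockout of the IL-4 receptor, whose allele the labels do not give, and mice of both genotypes were BALB/c. Nematode-elicited cells were taken 21 days after Brugia malayi was implanted into the peritoneum, and thioglycollate-elicited cells 3 days after the irritant was injected, so the elicitations also differ in time. The labels give a purity above 80% by F4/80 and CD11b, so other cells could make up the remainder. miR-223, a myeloid miRNA, stood above blank spots on 14 of 14 arrays, while an array of miRNA probes offers no check of the receptor itself. In such bulk RNA, fewer cells of a type and less RNA per cell cannot be told apart.

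The transcription factor p53 is held low in resting cells and accumulates after DNA damage and other stresses. It binds the promoters of Mir34a and of the Mir34b and Mir34c pair, and the miR-34 miRNAs in turn repress mRNAs for cell-cycle and survival proteins such as cyclin D1, Cdk6 and Bcl2. miR-192, miR-194 and miR-215 were tied to p53 in human cells and are best known as abundant miRNAs of liver, intestine and kidney, while miR-34b and miR-34c are known from testis and ciliated airway epithelium. The IL-4 receptor signals through Stat6 and drives the alternative activation of macrophages that nematode infection elicits.

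The mature sequences show which members share a seed, the stretch from base 2 to base 8 that pairs with target mRNAs, and they are given here 5′ to 3′ with the seed in capitals. They were taken from RefSeq on the GRCm38.p6 build, by the name of the 5p arm. The array names carry no arm, and the sequences of the capture probes were not used here. miR-449a is shown because it carries the seed of miR-34.
miR-34a-5p: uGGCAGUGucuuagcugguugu
miR-34b-5p: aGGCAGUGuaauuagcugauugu
miR-449a-5p: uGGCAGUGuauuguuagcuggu
miR-192-5p: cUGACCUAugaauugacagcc
miR-215-5p: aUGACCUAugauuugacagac
miR-194-5p: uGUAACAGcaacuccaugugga

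miR-34a and miR-34b share the seed GGCAGUG and lie 4 single-base edits apart over lengths of 22 and 23 bases. miR-449a shares that seed and lies 6 edits from miR-34a. miR-192 and miR-215 share the seed UGACCUA and differ at 3 of 21 bases, C1A, A12U and C20A, counted from base 1 at the 5′ end with the base of miR-192 first. miR-194 has a seed of its own, GUAACAG.

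The genes lie at 4 loci. miR-34a-5p is encoded at chr4:150068473-150068494 on the plus strand, and no other annotated gene overlaps Mir34a. miR-34b-5p is at chr9:51103610-51103632 on the minus strand. Mir34b and Mir34c lie 451 bases apart, and both overlap the annotations of Hoatz and Btg4. miR-194 is made from 2 genes. Mir194-1 lies within Iars2, 195 bases from Mir215 on chromosome 1, with miR-194-5p at chr1:185313325-185313346 and miR-215-5p at chr1:185313610-185313630. Mir194-2 lies 115 bases from Mir192 on chromosome 19, with miR-194-5p at chr19:6264658-6264679 and miR-192-5p at chr19:6264857-6264877, all on the plus strand. The probe for miR-194 cannot tell these 2 sources apart.

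Array quality sets what can be seen of these probes. The 95th percentile of net intensity (foreground minus local background) over blank and negative control spots ran from 12.6 to 111 between arrays, and between 33 and 267 of the 343 mouse probes had a median spot above it. Nematode wild-type replicate 4 stood apart, with a correlation of 0.835 with the rest of its group against 0.936 to 0.977 for the other arrays. Every slide held arrays of 1 group except slide 12, and slides were scanned group after group, so slide and scan order cannot be told apart from group in most comparisons.

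miR-34a was the one member that changed. It was highest in thioglycollate-elicited IL-4R KO cells, 2.24-fold above wild-type cells of the same elicitation. In nematode-elicited IL-4R KO cells it was at least 2.28-fold lower, a bound from blank-level signal that holds no sampling error. The fold of 2.24 rests partly on wild-type values at the level of blanks. The other 5 members lay near blank spots and did not pass the test in any of the 5 comparisons made.

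**Figure D1:**
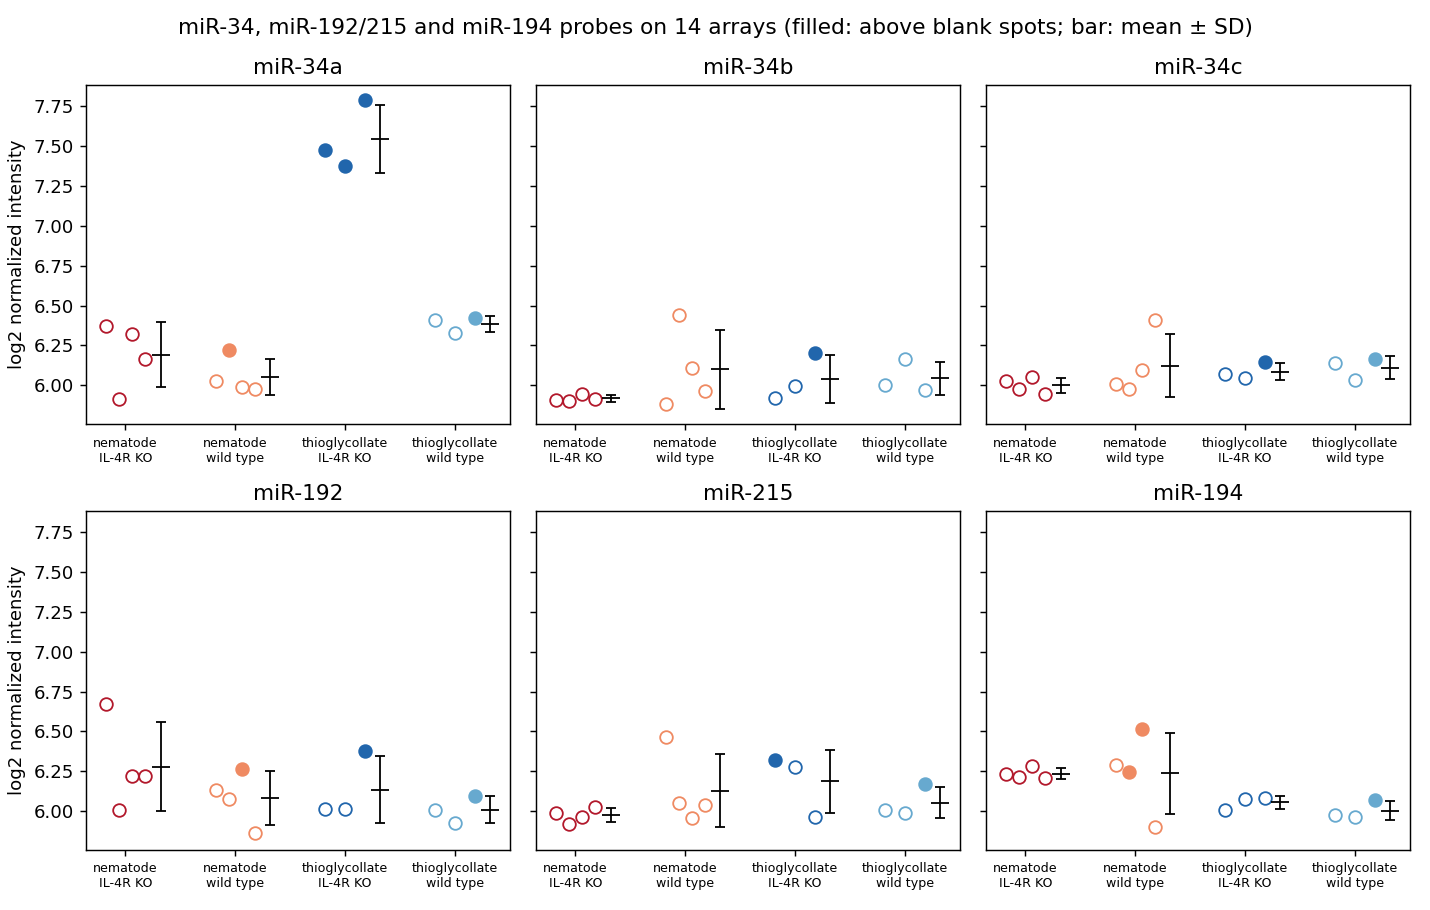
Log2 normalized intensity (vertical axis) of the 6 probes on each of the 14 arrays, by group (horizontal axis); each point is an array, filled where the median spot lay above the blank percentile of that array, and bars give the group mean ± SD. The 3 thioglycollate IL-4R KO arrays carry miR-34a at 7.38 to 7.79, above all other values shown.

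In net intensity units, the mean of the 3 miR-34a spots was 34.3, 10.4, 29.6 and 17.3 on the nematode IL-4R KO arrays. It was 18.1, 21.2, 9.35 and 10.1 on the nematode wild-type arrays. It was 117.9, 129.9 and 171.4 on the thioglycollate IL-4R KO arrays, against 31.9, 23.3 and 24.0 on the thioglycollate wild-type arrays. The lowest of the thioglycollate IL-4R KO values was therefore above the highest value of every other group. On every array the brightest spot was at most 1.84 times the middle one. The array with that ratio, thioglycollate wild-type replicate 2, had spots of 13.8, 19.7 and 36.4 units.

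Against blank spots, miR-34a was above the percentile on 0 of 4 nematode IL-4R KO arrays and on 1 of 4 nematode wild-type arrays. It was above it on 3 of 3 thioglycollate IL-4R KO arrays and on 1 of 3 thioglycollate wild-type arrays. Judged by the mean of the spots instead of their median, an alternative added after the data were seen, 1 of 4 nematode IL-4R KO arrays passed and the other counts stood. The percentile differs between arrays, so these counts follow it as well as the signal. Outside the thioglycollate IL-4R KO group the probe was thus mostly at the level of blanks, and its values there are close to bounds.

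**Figure D2:**
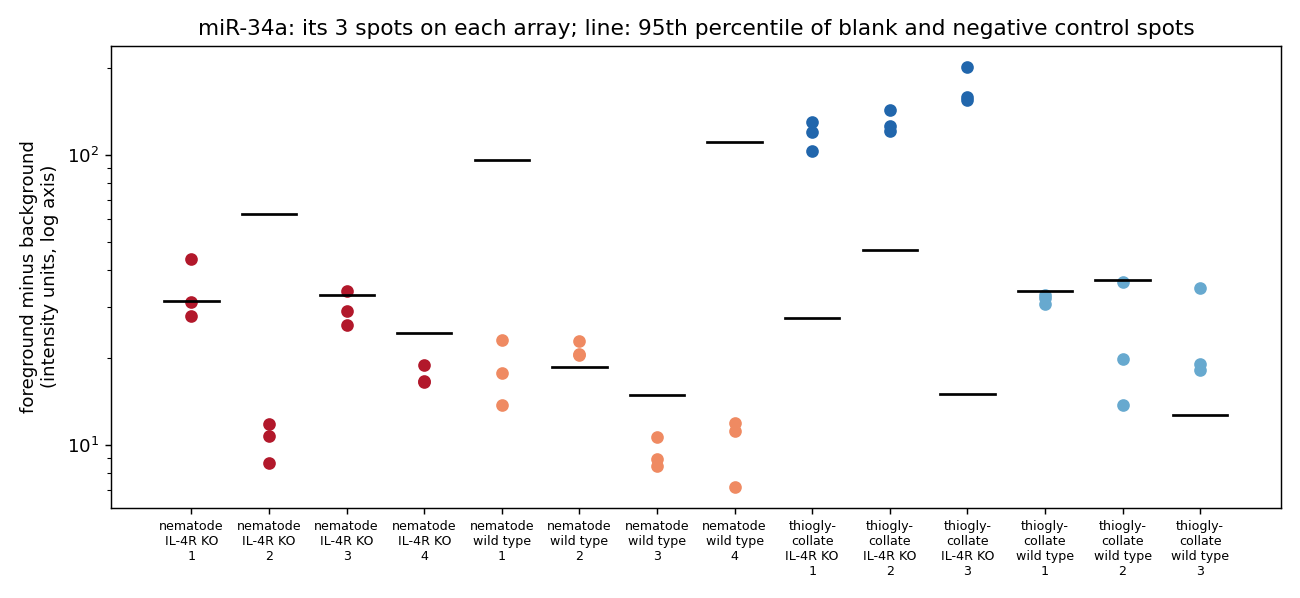
Net intensity of the 3 miR-34a spots (points, log axis) on each array (horizontal axis, by group and replicate); the line is the 95th percentile of blank and negative control spots of that array. All spots of the 3 thioglycollate IL-4R KO arrays lie above their line, at 103.4 or more.

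After normexp background correction with an offset of 50 and quantile normalization, log2 intensity of miR-34a was 6.37, 5.92, 6.32 and 6.17 on the nematode IL-4R KO arrays, a mean of 6.19 ± 0.20 (SD, n = 4). It was 6.03, 6.22, 5.99 and 5.98 on the nematode wild-type arrays, a mean of 6.05 ± 0.11 (SD, n = 4). It was 7.47, 7.38 and 7.79 on the thioglycollate IL-4R KO arrays, a mean of 7.55 ± 0.21 (SD, n = 3). It was 6.41, 6.33 and 6.42 on the thioglycollate wild-type arrays, a mean of 6.39 ± 0.05 (SD, n = 3). In this order of group means, thioglycollate IL-4R KO came first and stood clear of the rest. Thioglycollate wild type, nematode IL-4R KO and nematode wild type followed, and each overlapped its neighbour in the order.

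The first comparison asked what loss of the IL-4 receptor did within thioglycollate-elicited cells. miR-34a was higher in IL-4R KO than in wild-type cells by 1.16 on the log2 scale (SE 0.132, 95% interval 0.875 to 1.45, n = 3 each, limma, adjusted p = 0.000339). It ranked first of 343 by p and by size, and it was the single mouse miRNA past the threshold of 0.05 on the adjusted p, 0.292% of those tested. Omission of nematode IL-4R KO replicate 2 made the count 5, and omission of nematode wild-type replicate 4 made it 2, arrays that enter through the shared estimate of spread and the normalization. The groups of 3 arrays did not overlap for miR-34a, as for 11.1% of all mouse probes. The wild-type probe passed the blank percentile on 1 of 3 arrays, replicate 3, where that percentile was 12.6, against 33.9 and 36.9. Its middle spot there was 19.0 units, against 32.2 and 19.7 on the others, so it passed by the lower percentile. The fold of 2.24 and the net ratio below therefore rest partly on values at the level of blanks. The offset of 50 compresses such a value for a dim probe. The ratio of mean net intensities, IL-4R KO over wild type, was 5.3 (139.7 ± 28.05 against 26.4 ± 4.80 units, SD, n = 3 each), and with plain subtraction the difference was 2.11 on the log2 scale (limma, adjusted p = 0.0224).

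Slide 12 holds an array of each genotype. There miR-34a had a log2 intensity of 7.47 on the IL-4R KO array and 6.42 on the wild-type array, and it was above blank spots on both. On the wild-type array its middle spot of 19.0 units passed a blank percentile of 12.6, the lowest of all arrays. The difference of 1.05 within that slide was the second largest in size of 343 probes, and the other 5 members differed by -0.09 to 0.155. With slide as a random block the estimate over all arrays was 1.16 (limma, adjusted p = 0.000302). Every other slide held a single group, so that fit cannot separate slide from group. Slide 12 itself offers a single array per genotype.

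None of the 27 cell-type marker probes (lymphoid, myeloid, erythroid, endothelial, stromal, epithelial, liver and muscle miRNAs) passed the test in this comparison, with log2 differences of -0.564 to 0.293. Summed linear intensity of the 4 lymphocyte probes was 310.1 to 351.5 on the IL-4R KO arrays and 334.3 to 402.4 on the wild-type arrays. Summed intensity of the 3 myeloid probes was 2588 to 4220 on the IL-4R KO arrays and 3512 to 3610 on the wild-type arrays. The liver marker miR-122a was above blank spots on 0 arrays of either genotype. Its 1 probe still read 60.95 to 64.45 on the IL-4R KO arrays and 58.78 to 63.29 on the wild-type arrays. The sums hold such a floor for each probe, so similar sums do not show similar cell content.

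The second comparison set the elicitations side by side in mice without the receptor. miR-34a in nematode-elicited IL-4R KO cells was below its level in thioglycollate-elicited IL-4R KO cells, with a log2 difference of -1.35 (SE 0.123, 95% interval -1.62 to -1.09, n = 4 and 3, limma, adjusted p = 2.87e-05). It ranked first by p and second by size, where 1.46% of the 343 mouse probes were past the threshold in either direction. Since no nematode IL-4R KO array had the probe above blank spots, the fold is a bound, at least 2.28-fold lower. That bound sets the bright group's mean against, per array, the higher of the probe's own value and the lowest signal above blanks. It covers the blank level alone and holds no sampling error. The 95% interval of the measured fold ran from 2.12 to 3.08. Mean net intensity was 22.89 ± 10.97 units in nematode IL-4R KO cells and 139.7 ± 28.05 units in thioglycollate IL-4R KO cells, and plain subtraction gave a log2 difference of -2.7 (limma, adjusted p = 0.000478).

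In the same comparison 1 of 27 marker probes was past the threshold. The lymphocyte miRNA miR-150 was higher in nematode-elicited IL-4R KO cells with a log2 difference of 1.01 (SE 0.137, adjusted p = 0.00107 in limma). Summed linear intensity of the 4 lymphocyte probes was 351.5 to 416.9 on the nematode IL-4R KO arrays and 310.1 to 351.5 on the thioglycollate IL-4R KO arrays. The other 3 lymphocyte probes did not pass: miR-342 differed by -0.41 (limma, adjusted p = 0.363), miR-181a by 0.05 and miR-181b by -0.03, and the median over the list was 0.009. The part of such cells in the miR-34a difference was not tested.

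The third comparison was nematode against thioglycollate elicitation in wild-type cells. miR-34a differed by -0.33 on the log2 scale (SE 0.123, 95% interval -0.601 to -0.066, n = 4 and 3), with an adjusted p of 0.393 in limma. The 4 nematode wild-type arrays lay below the 3 thioglycollate wild-type arrays without overlap, which held for 7.87% of mouse probes in either direction, while 0.875% passed the adjusted threshold. Mean net intensity was 14.7 ± 5.90 units in nematode wild-type cells and 26.4 ± 4.80 units in thioglycollate wild-type cells (SD, n = 4 and 3). With the probe above blank spots on 1 array of each group, a difference of this size was at the limit of what the arrays can show. Here the marker miR-342, known from lymphocytes, was lower by -0.81 (limma, adjusted p = 0.0297), the single marker probe of 27 to pass. The other lymphocyte probes did not, with log2 differences of 0.17 for miR-150, -0.29 for miR-181a and -0.06 for miR-181b.

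The fourth comparison was genotype within nematode-elicited cells, and miR-34a differed by 0.14 on the log2 scale, IL-4R KO minus wild type (SE 0.114, 95% interval -0.107 to 0.389, n = 4 each, limma, adjusted p = 0.6). The groups overlapped for every member, while 9.04% of mouse probes did not overlap, and for miR-34a both lay mostly at the level of blanks. Of all mouse probes 1.75% were past the threshold, none of them a member. Among marker probes the lymphocyte miRNA miR-150 was higher in IL-4R KO cells by 0.96 (limma, adjusted p = 0.000573), and myeloid miR-223 was lower by -1.34 (limma, adjusted p = 0.000697). The other members of both lists did not pass. In the myeloid list miR-142-3p differed by 0.91 (limma, adjusted p = 0.454) and miR-142-5p by -0.10, and in the lymphocyte list miR-342 differed by 0.10, miR-181a by 0.15 and miR-181b by 0.01.

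The genotype difference of miR-34a was itself compared between elicitations. The IL-4R KO minus wild-type difference in nematode-elicited cells was below that in thioglycollate-elicited cells, by a log2 value of -1.02 (SE 0.175, 95% interval -1.4 to -0.642, limma, adjusted p = 0.0224), where 0.583% of mouse probes, 2 in all, passed. miR-34a had rank 1 by p and rank 4 by size. The nematode side of this difference lies between values mostly at the level of blanks (above them on 0 of 4 IL-4R KO and 1 of 4 wild-type arrays), so it describes measured intensity, and a genotype difference below that level could not be seen there. This call was lost under 4 of 15 other settings and under 5 of 14 omissions of 1 array, with the direction kept in each. Plain subtraction and the authors' value table, both among these 4, hold the same values and are not separate losses. The arrays whose omission ended it were nematode wild-type replicate 3 (adjusted p = 0.0518), thioglycollate IL-4R KO replicates 1 (0.0551) and 3 (0.0735), and thioglycollate wild-type replicates 2 (0.0766) and 3 (0.0713), all by limma.

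**Figure D3:**
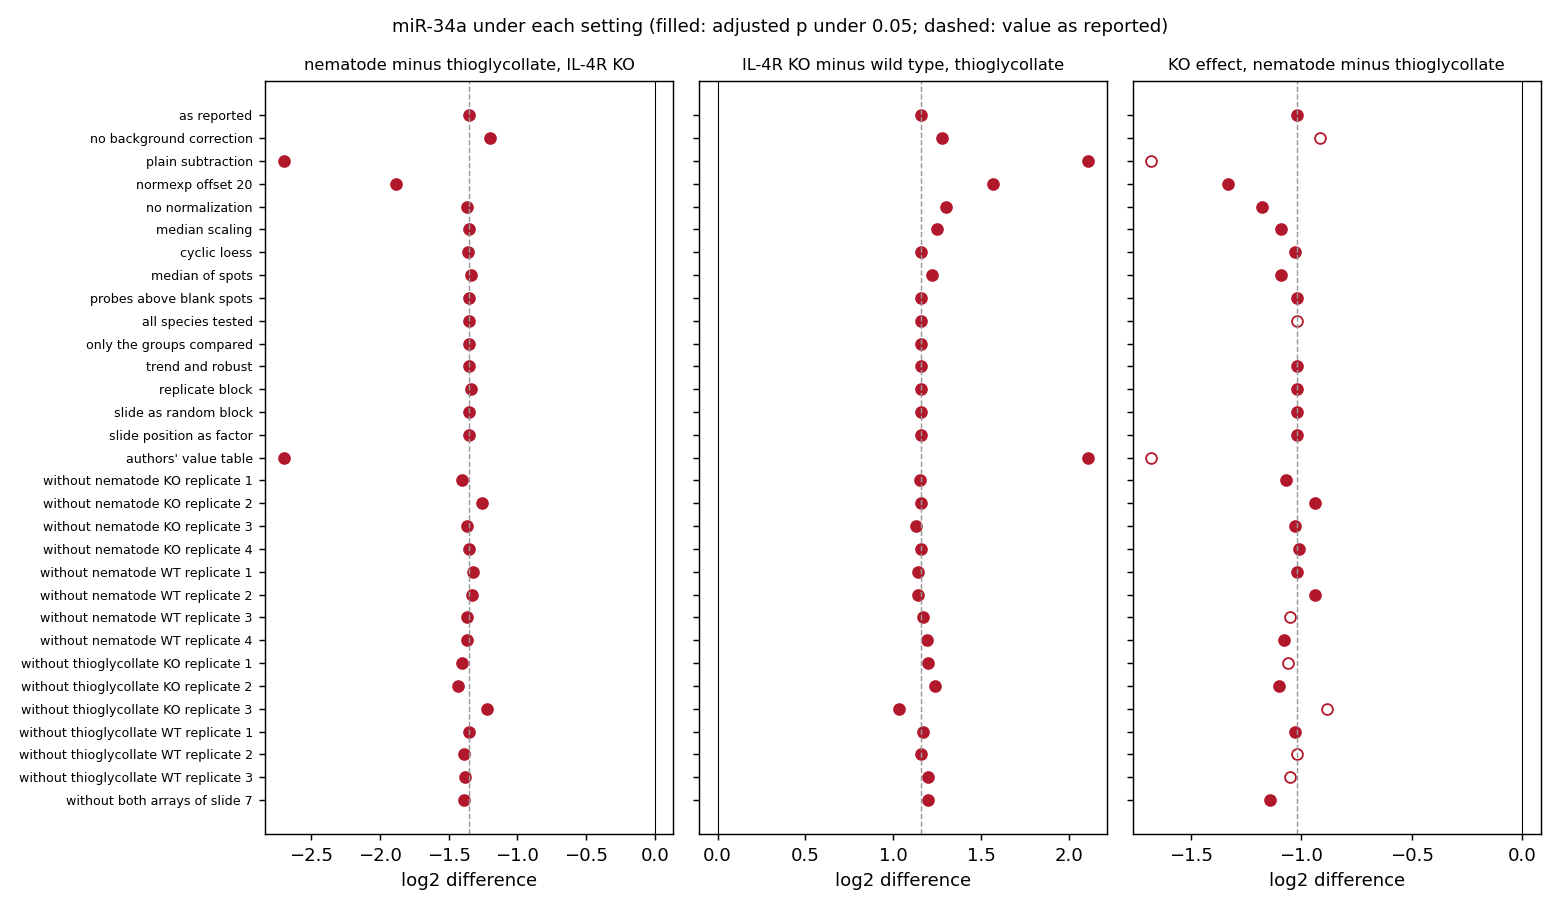
Log2 difference of miR-34a (horizontal axis) under each processing setting and with each array left out (vertical axis), for 2 comparisons and for the difference between the genotype effects of the 2 elicitations (right panel); filled points had an adjusted p under 0.05, and the dashed line is the value as reported. The direction is the same at every point, and open points appear in the right panel alone.

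miR-34b and miR-34c, made from 1 shared locus, stayed dim. miR-34b had log2 intensities of 5.91, 5.90, 5.95 and 5.91 on the nematode IL-4R KO arrays, and 5.88, 6.44, 6.11 and 5.97 on the nematode wild-type arrays. It had 5.92, 5.99 and 6.20 on the thioglycollate IL-4R KO arrays, and 6.00, 6.16 and 5.97 on the thioglycollate wild-type arrays. The groups overlap in every comparison, and the highest value, on nematode wild-type replicate 2, rested on 1 spot at 106.3 net units, 10.4 times the middle spot of 10.2.

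miR-34c ranged from 5.95 to 6.05 on the nematode IL-4R KO arrays and from 5.98 to 6.41 on the nematode wild-type arrays. It ranged from 6.04 to 6.14 on the thioglycollate IL-4R KO arrays and from 6.03 to 6.16 on the thioglycollate wild-type arrays. Its highest value was on nematode wild-type replicate 4, the array that stood apart, and the groups again overlap. Between genotypes in thioglycollate-elicited cells, where miR-34a rose, the log2 difference was -0.005 for miR-34b (95% interval -0.286 to 0.276) and -0.02 for miR-34c (95% interval -0.251 to 0.202). These intervals leave out a change of measured intensity of the size seen for miR-34a on this scale, although the scale compresses dim probes. In these cells miR-34b was above blank spots on 1 of 3 IL-4R KO and 0 of 3 wild-type arrays, and miR-34c on 1 of 3 of each. A change of RNA below the level of blanks could not be seen. Above blank spots, miR-34b stood on 1 of 14 arrays and miR-34c on 2 of 14.

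The array also carries 3 miR-34 probes named for other species. Their log2 intensity in thioglycollate IL-4R KO cells was 5.91 to 6.45, and 0 of the 7 other-species probes of the members' names passed the test in any comparison.

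The pair with a shared seed, miR-192 and miR-215, and their cluster partner miR-194 were likewise near blanks. miR-192 had log2 intensities of 6.67, 6.01, 6.22 and 6.22 on the nematode IL-4R KO arrays, and 6.13, 6.07, 6.26 and 5.86 on the nematode wild-type arrays. It had 6.01, 6.01 and 6.38 on the thioglycollate IL-4R KO arrays, and 6.01, 5.93 and 6.09 on the thioglycollate wild-type arrays. The highest of these, on nematode IL-4R KO replicate 1, rested on 1 spot at 186.6 net units beside a middle spot of 24.0.

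miR-215 ranged from 5.92 to 6.03 on the nematode IL-4R KO arrays and from 5.96 to 6.46 on the nematode wild-type arrays. It ranged from 5.96 to 6.32 on the thioglycollate IL-4R KO arrays and from 5.99 to 6.17 on the thioglycollate wild-type arrays. Its highest value, on nematode wild-type replicate 1, came from spots of 2.62, 69.8 and 201.4 net units and was not above blank spots. The mean foreground of the probe on that array was 1207, against 56.9 to 128.9 on the other arrays. The groups overlap, and the probe was above blank spots on 2 of 14 arrays, against 3 of 14 for miR-192. Probes named for other species were more often above blank spots. The frog probe xtr-miR-215 was so on 11 of 14 arrays, with log2 intensities of 6.23 to 7.07, and the human probes hsa-miR-215 and hsa-miR-192 were so on 5 of 14 arrays each. None of these 3 passed in any comparison, and which RNA they bind in mouse samples was not tested.

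miR-194 had log2 intensities of 6.23, 6.21, 6.28 and 6.21 on the nematode IL-4R KO arrays, and 6.29, 6.24, 6.51 and 5.90 on the nematode wild-type arrays. It had 6.01, 6.07 and 6.08 on the thioglycollate IL-4R KO arrays, and 5.98, 5.96 and 6.07 on the thioglycollate wild-type arrays. In IL-4R KO cells the nematode arrays lay above the thioglycollate arrays without overlap, as for 15.7% of mouse probes in either direction, and the difference of 0.18 did not pass (95% interval -0.0639 to 0.424, limma, adjusted p = 0.594). The probe was above blank spots on 0 of 4 and 0 of 3 of these arrays. Its middle spots overlapped, at 16.06 to 29.41 net units (nematode) and 14.02 to 17.08 (thioglycollate). Nematode IL-4R KO replicate 2 had 1 spot at 68.15 beside a middle spot of 16.17. In wild-type cells the difference was 0.23 (95% interval -0.0102 to 0.478, limma, adjusted p = 0.481). Without nematode wild-type replicate 4 it was 0.327 (limma, adjusted p = 0.0443). No call came with any other single array omitted, or under 16 other settings (lowest adjusted p = 0.0918, limma). Those settings include omission of both arrays of slide 7, nematode wild-type replicates 3 and 4.

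Across the 5 dim members, log2 intensity ran from 5.86 to 6.67 and group means from 5.92 to 6.28. Only 11 of their 70 array values were above blank spots. Their differences ran from -0.21 to 0.18 for nematode against thioglycollate in IL-4R KO cells (adjusted p from 0.586 to 0.843, limma) and from 0.01 to 0.23 in wild-type cells (0.481 to 0.974). For IL-4R KO against wild type they ran from -0.18 to 0.20 in nematode-elicited cells (adjusted p from 0.538 to 0.985, limma) and from -0.02 to 0.13 in thioglycollate-elicited cells (all 1). The widest of their 95% intervals in these 4 comparisons reached 0.50 on the log2 scale, so larger changes of normalized intensity lie outside every interval. A change of RNA below the level of blanks could not be seen in them. The median over all 6 members was -0.10, 0.06, -0.06 and 0.09 in those 4 comparisons in the same order, beside -0.04, -0.02, 0.00 and 0.00 over all mouse probes.

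Other miRNAs placed around p53 were described from 4 lists, 25 probes in all. Of all mouse probes, 0.292% to 1.75% passed in a comparison, so a count of 0 in a list is near that share. Of 8 listed miRNAs that p53 induces or whose maturation it raises, 7 were measured (miR-15a, miR-16, miR-22, miR-107, miR-143, miR-145 and miR-200c), and 0 passed in any comparison. Between genotypes in thioglycollate-elicited cells their log2 differences ran from -0.54 (miR-22) to 0.379 (miR-15a), with a median of 0.05 beside 0.00 over all mouse probes. Between elicitations in IL-4R KO cells they ran from -0.44 (miR-22) to 0.388 (miR-16), with a median of -0.07 beside -0.04. miR-143, miR-145 and miR-200c are also markers of stromal or epithelial cells.

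Of 9 listed miRNAs that target p53 mRNA or raise p53, 8 were measured, and 1 passed once. miR-125b, which represses p53 in human and zebrafish cells, was lower in nematode-elicited IL-4R KO cells than in nematode-elicited wild-type cells with a log2 difference of -1.29 (SE 0.138, adjusted p = 0.000136 in limma). Its level was 6.63 ± 0.11 in nematode IL-4R KO cells and 7.93 ± 0.25 in nematode wild-type cells (SD, n = 4 each), and it was above blank spots on 14 of 14 arrays. In the same comparison the list ran up to 0.271 (miR-33), with a median of 0.128 beside 0.00 over all mouse probes. Between genotypes in thioglycollate-elicited cells, where miR-34a rose, the list ran from -0.53 (miR-125b) to 0.43 (miR-29b) and none passed.

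The 8 probes of the miR-17-92 cluster, which p53 represses, were all above blank spots on at least 3 arrays, and 0 passed in any comparison. That count is near the share over all mouse probes, 0.292% to 1.75% by comparison. Between genotypes in thioglycollate-elicited cells they ran from -0.95 (miR-92) to 0.825 (miR-19b), with a median of 0.128. In nematode-elicited cells 7 of 8 differences between IL-4R KO and wild type were above 0, with a median of 0.305 beside 0.00 over all mouse probes. Between elicitations in wild-type cells 7 of 8 were below 0, with a median of -0.36 beside -0.02. Both counts use the nematode wild-type arrays, on which 0 to 8 of these probes were above blank spots. The probes are of 1 cluster, with 2 of them for miR-20a, so their directions are not independent.

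The relatives with the miR-34 seed, miR-449 and miR-449b, were above blank spots on at least 3 arrays for 0 of 2 probes. miR-449 averaged 6.28 ± 0.49 in nematode IL-4R KO cells and 5.98 ± 0.06 in nematode wild-type cells (SD, n = 4 each). It averaged 6.09 ± 0.11 in thioglycollate IL-4R KO cells and 6.03 ± 0.07 in thioglycollate wild-type cells (SD, n = 3 each). The genotype difference in thioglycollate-elicited cells was 0.06 for miR-449 and 0.02 for miR-449b, and neither passed the test in any comparison.

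**Figure D4:**
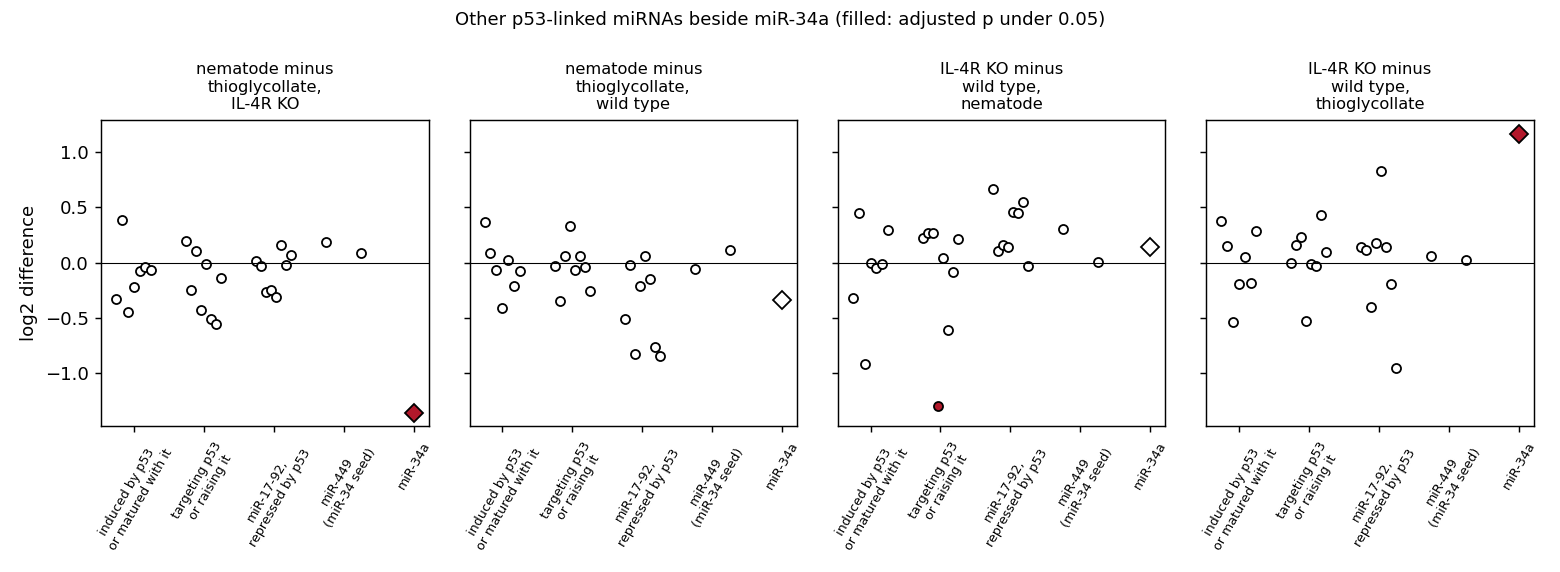
Log2 difference (vertical axis) of each probe in the 4 p53-linked lists, with miR-34a as a diamond, in the 4 comparisons; filled symbols had an adjusted p under 0.05. Among the 25 listed probes the one filled point is miR-125b at -1.29 in nematode-elicited cells, and miR-34a lies outside the range of the lists in the first and last panels.

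The mouse probes whose pattern was most like that of miR-34a were ranked by Pearson's r over the 14 arrays, among 207 other probes above blank spots on at least 3 arrays. The arrays share their groups and slides, so the values are a description. The highest were miR-324-5p (r = 0.797), miR-140* (0.766), miR-338 (0.739), miR-221 (0.73) and miR-23b (0.715). Without the 3 thioglycollate IL-4R KO arrays, over 11 arrays, r was 0.321 for miR-324-5p and 0.281 for miR-338, against 0.85 for miR-140*, 0.767 for miR-221 and 0.676 for miR-23b. Among those arrays miR-34a was above blank spots on 0 of 4 nematode IL-4R KO, 1 of 4 nematode wild-type and 1 of 3 thioglycollate wild-type arrays. These r values therefore rest mostly on miR-34a signal at the level of blanks. The likeness of miR-324-5p and miR-338 thus lay mostly in the 1 group where miR-34a was bright. miR-338, for example, had log2 intensities of 6.61 ± 0.07 in thioglycollate IL-4R KO cells and 6.03 ± 0.17 in thioglycollate wild-type cells (SD, n = 3 each). The lowest were miR-26a (r = -0.465), miR-422b (-0.463) and miR-423 (-0.426).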

How the data were processed

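Total RNA of 14 samples was labelled with Hy3 and hybridised to one-colour miRCURY LNA arrays, per the labels' protocols. The deposited slide files hold foreground and local background intensity per spot on a linear scale, per the file headers, neither subtracted nor normalized by the authors. The authors' deposited value table equals foreground minus background intensity within 0.001, on the linear scale and uncentred, and served as an alternative. The sources used here name no scanner software.

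The normexp method with an offset of 50 removed background. The 3 log2 values of each probe were then averaged and quantile normalization was run over 1309 named miRNA probes (R 4.3.3, limma 3.58.1). The offset compresses differences of dim probes. A probe counted as above blanks where its median spot exceeded the 95th percentile of net intensity of 702 blank and 24 negative control spots, and 208 mouse probes did so on at least 3 arrays. The number of arrays limits the precision.

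The 5 comparisons (elicitation within each genotype, genotype within each elicitation, and their interaction) came from 1 limma fit of 4 group means over 14 arrays, with two-sided moderated tests and Benjamini-Hochberg adjustment over 343 mouse probes at 0.05. The fit was tested on simulated data. The labels do not say that replicates were separate mice, and p-values therefore reflect the spread between these samples alone, possibly technical. The same replicate number in different groups was not taken as a pairing: correlations of deviations ran from -0.238 to 0.315. With so few arrays per group, low correlations cannot show that samples were unpaired. No 2 arrays were duplicates (highest correlation 0.9718).

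Members, lists and markers were chosen with earlier results of these data known. Named miRNAs were the members, the members of the p53 lists past the threshold or at either end of a list, and the 5 most and 3 least like miR-34a; marker probes past the threshold were added. Alternatives covered background correction, normalization, spot summary, filtering, probes tested, arrays fitted, variance model, replicate and slide blocks, and omission of each array. The changes of filtering, probes tested, arrays fitted and variance model left the miR-34a estimate between elicitations in IL-4R KO cells at -1.35. Those settings test its p alone. miR-34a passes the filter, above blanks on at least 3 arrays, only through the thioglycollate IL-4R KO arrays where it is high.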

Additional observations from a re-analysis of the deposited data

Results flagged for a closer look

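The genotype difference of miR-34a (IL-4R KO minus wild type) differed between the elicitations, nematode minus thioglycollate, by -1.02 on the log2 scale (limma, adjusted p = 0.0224). It was 0.14 in nematode-elicited cells and 1.16 in thioglycollate-elicited cells. In nematode-elicited cells the probe was above blank spots on 0 of 4 IL-4R KO and 1 of 4 wild-type arrays, so the size of a genotype difference there could not be measured. The other 5 members did not differ in this way past the threshold (adjusted p from 0.904 to 0.984). Array values were also screened by Dixon's criterion at the 95% level, the gap of an extreme value to its nearest neighbour over the range of its group. None of the 12 sets of 4 values (6 members in both nematode groups) exceeded it. The ratios ran from 0.301 to 0.825, the highest for miR-215 in nematode-elicited wild-type cells, close to the criterion, and 0.801 for miR-34a in the same group.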

How the results depend on the processing

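The miR-34a difference between elicitations in IL-4R KO cells kept its direction and passed the threshold in 16 of 16 other settings (-2.7 to -1.2) and with each array left out (-1.43 to -1.22), and so did the genotype difference in thioglycollate-elicited cells (1.16 to 2.11; each array left out, 1.03 to 1.24). Plain subtraction and the authors' table are 1 analysis under both names, and refits of the same values are not separate support. The interaction of miR-34a lost its call with no background correction (-0.917, adjusted p = 0.368), plain subtraction and the authors' value table (both -1.68, adjusted p = 0.352) and all species tested (-1.02, adjusted p = 0.0711), where 0 members passed. With each array left out it ran from -1.1 to -0.883 (adjusted p from 0.00879 to 0.0766, limma), with 0 to 1 members past the threshold. The count of members past the threshold between elicitations in wild-type cells was 0 in all other settings and 0 to 1 with each array left out. The uncalled dim members changed sign as follows. Nematode minus thioglycollate in wild-type cells was -0.142 for miR-34b and -0.0883 for miR-34c with plain subtraction and with the authors' table, -0.0966 for miR-34b with the median of spots, and for miR-34c -0.0266 with the replicate block and -0.113 without both arrays of slide 7, a setting added after the data were seen. IL-4R KO minus wild type in nematode-elicited cells was, for miR-194, 0.0561 with plain subtraction and the authors' table, 0.00427 with an offset of 20, 0.0243 with median scaling and 0.0656 with cyclic loess, and for miR-34c 0.00834 without slide 7. In thioglycollate-elicited cells it was -0.0126 for miR-215 with no background correction, 0.0187 for miR-34b and 0.034 for miR-34c with no normalization, and 0.0344 for miR-34b with slide position as a factor. The interaction turned to 0.033 for miR-194 with cyclic loess, 0.00812 for miR-34b and -0.0962 for miR-192 with the median of spots, and 0.0315 for miR-34c without slide 7. With each array left out, nematode minus thioglycollate in wild-type cells ran from -0.0584 to 0.121 for miR-34b, -0.0774 to 0.0624 for miR-34c and -0.0365 to 0.135 for miR-215. IL-4R KO minus wild type ran from -0.111 to 0.0922 for miR-194 in nematode-elicited cells, and from -0.0896 to 0.0554 for miR-34b and -0.0662 to 0.00087 for miR-34c in thioglycollate-elicited cells. The interaction ran from -0.0568 to 0.197 for miR-192 and -0.159 to 0.0397 for miR-194. The cause of these changes was not tested.

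With the replicate number as a block, the miR-34a values were -1.34 (adjusted p = 3e-04), 1.16 (0.00271) and -1.02 (0.0376), and no call of a member changed. Counts of all mouse miRNAs past the threshold moved by more than 1.5 times under some settings, from 3 to 11 (5 as reported) and 0 to 13 (3) between elicitations in IL-4R KO and wild-type cells, 5 to 14 (6) and 1 to 3 (1) between genotypes in nematode- and thioglycollate-elicited cells, and 0 to 7 (2) for the interaction. Omission of 1 array also moved them. Without nematode wild-type replicate 4 the 5 counts, in that order, were 8, 8, 12, 2 and 7, and without nematode IL-4R KO replicate 2 the genotype count in thioglycollate-elicited cells was 5. The count between elicitations in IL-4R KO cells was 3 without nematode IL-4R KO replicate 2 or thioglycollate IL-4R KO replicate 1. For the interaction 1 passed when nematode IL-4R KO replicate 1, 2 or 3 was omitted, and 0 without nematode wild-type replicate 3, thioglycollate IL-4R KO replicate 1 or 3, or thioglycollate wild-type replicate 2 or 3. The median of all mouse probes shifted by over 0.1 with plain subtraction (-0.146, elicitations in IL-4R KO cells) and with no normalization (0.104, elicitations in wild-type cells, and -0.141, interaction). Signal near that of blank spots limits what the 5 dim members can show.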
